A study of Homo sapiens with 2 samples.

Results

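The major histocompatibility complex (MHC) region of chromosome 6 was described by the RNA sites that crosslinked to SOX2 within it. Its members were all sites of both deposited lists on chromosome 6 that started at or after 28900000 and ended before 33400000 in the hg19 build, on either strand. By this rule 577 of 72794 sites belonged to the region, 131 of 16964 in replicate 1 and 446 of 55830 in replicate 2. The sites were measured by PAR-CLIP, in which a photoreactive uridine is built into RNA, long-wave ultraviolet light links it to bound protein, and the RNA fragments recovered with the immunoprecipitated protein are sequenced. Both libraries came from HEK293T cells, a human embryonic kidney line, transfected with plasmids for FLAG-tagged SOX2, labelled with 0.2 mM 4-thiouridine for 16 hours and irradiated at 365 nm. They form 1 group of 2 independent experiments, without a second condition, and no control library was used here. SOX2 was thus expressed from a plasmid, and neither background crosslinking nor the amount of each RNA in the cells was measured. The difference between the experiments is the only measure of error available.

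The MHC is among the most gene-dense parts of the human genome and is known for its part in immune recognition. Its class I part carries the heavy chains that show peptides from inside the cell to T cells, its class II part carries the chains used by antigen-presenting cells together with the peptide transporter and immunoproteasome genes, and the class III part between them carries complement, cytokine and many housekeeping genes. Much of the region is not immune at all. TUBB encodes a beta-tubulin, POU5F1 encodes OCT4, the pluripotency factor that pairs with SOX2 on DNA, DDX39B encodes an RNA helicase of splicing and mRNA export, PRRC2A encodes a large RNA-binding protein, and HSPA1A and HSPA1B encode near-identical heat-inducible HSP70 chaperones. In the RefSeq table of GRCh38.p14, HLA-E, ABCF1, TUBB, POU5F1, HLA-C, HLA-B and MICB come in this order, with other genes among them, in the class I part. DDX39B, PRRC2A, CSNK2B, HSPA1A, HSPA1B, EHMT2 and PBX2 likewise come between MICB and BTNL2, and HLA-DRA, HLA-DQB1, TAP1, BRD2, RXRB, RING1 and DAXX come after BTNL2. That table counted 60 protein-coding genes between MICB and BTNL2. It stands on another build than the site lists, so it gave names and order only. No site was assigned to a gene, and no value is given for TUBB, PRRC2A, DDX39B, HSPA1A, HSPA1B or POU5F1. Sites are named by position, counted from 1.

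Sites were several times denser in the MHC region than elsewhere in both replicates. Replicate 1 had 29.1 sites per Mb in the region against 5.49 per Mb over the other nuclear sequence, a 5.30-fold difference. Replicate 2 had 99.1 against 18.1 per Mb, a 5.48-fold difference. When the nuclear chromosomes were laid out in 666 stretches of the same 4.50 Mb length, the region ranked 11th by number of sites in replicate 1 and 15th in replicate 2, with medians of 14 and 38 sites per stretch. The density of genes and of expressed RNA along the genome was not measured, and its part in this difference was not tested. The replicates kept the same proportion here as overall: replicate 2 had 3.40-fold more sites than replicate 1 in the region and 3.29-fold more in the whole lists.

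Each site carries a deposited score, a whole number whose meaning no source used here states. Read depth is unknown, so scores are given as deposited and summed only as a description. Scores in the region ran from 8 to 3072 in replicate 1, with a median of 41, and from 5 to 1929 in replicate 2, with a median of 24. The medians of the other nuclear sites were 26 and 19. Scores of at least 100 were held by 22.9% (95% Wilson interval 16.5 to 30.8) of the region's sites in replicate 1, against 14.5% (14.0 to 15.0) of the other nuclear sites. In replicate 2 these shares were 10.5% (8.02 to 13.7) and 7.11% (6.90 to 7.32). The intervals did not overlap in either replicate. The rest of chromosome 6 gave 22.3% (19.4 to 25.4) and 12.4% (11.0 to 13.9), and these intervals overlapped those of the region. Sites were short: median lengths were 16 nt (replicate 1) and 17 nt (replicate 2), with maxima of 31 nt and 37 nt. Neighbouring sites of a strand may share a transcript or a fragment, which was not examined. The intervals cover counting of sites only and treat sites as independent, so they are likely too narrow.

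Sites of the 2 lists that covered at least 1 common base on the same strand were counted as shared. In the region 28 sites of replicate 1 were shared, or 21.4% (interval 15.2 to 29.2), and over the whole list of replicate 1 the share was 21.3%. The partners were 28 sites of replicate 2, or 6.28% (4.38 to 8.92), against 6.50% over its whole list. The region's sites were thus shared at the rate of the lists as a whole. Shared sites carried 24.4% of the region's score sum in replicate 1 and 16.8% in replicate 2. For the other nuclear sites these shares of score were 75.9% and 50.6%, where single scores reached 1560568 and 702704.

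**Figure D1:**
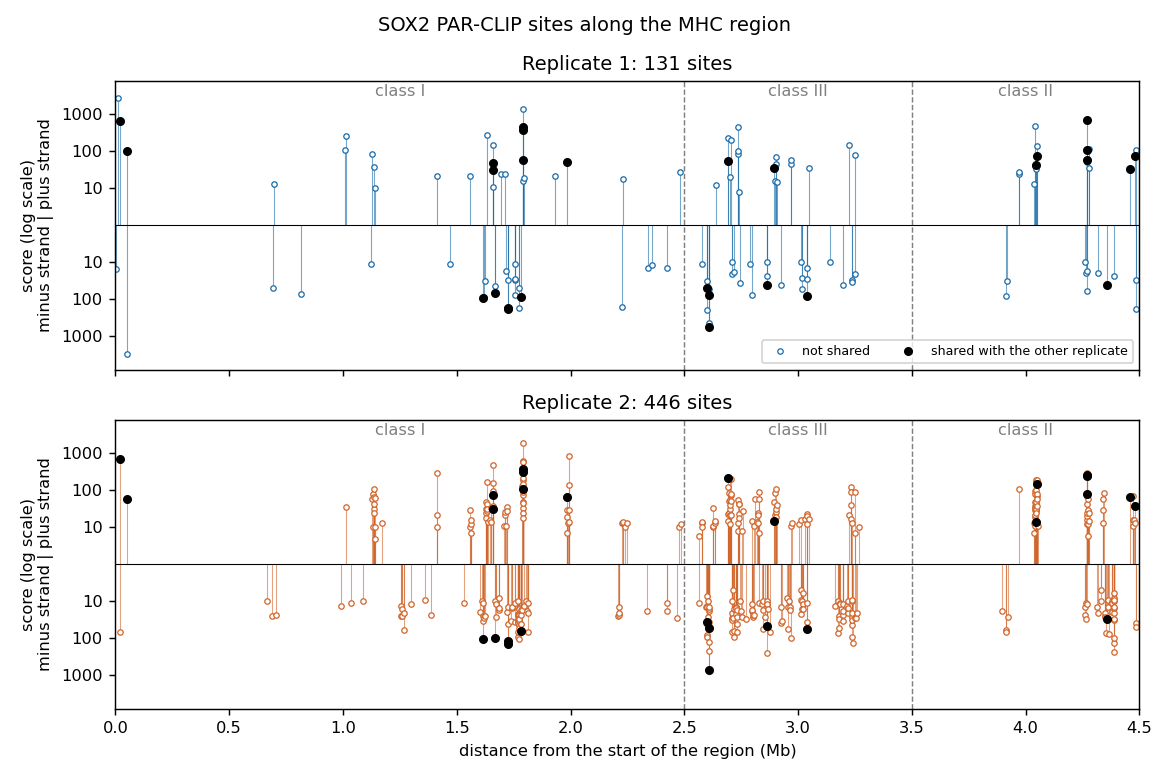
Each site of the MHC region is drawn at its distance from the start of the region (x axis, Mb) with its score on a log scale (y axis), plus-strand sites upwards and minus-strand sites downwards, in replicate 1 (131 sites, top) and replicate 2 (446 sites, bottom). Black points are shared sites, open points are not shared, and dashed lines are the borders between the class I, class III and class II windows; both replicates have many sites in windows 4, 6 and 9 and leave the longest empty interval at the same place.

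For a description by class, the region was divided into 9 windows of 500 kb. The opening 5 windows (28900001 to 31400000) stood for class I, the next 2 (31400001 to 32400000) for class III and the last 2 (32400001 to 33400000) for class II with the genes beyond it. These borders are window edges and not gene borders. The class I windows start where the region starts, and whether class I genes lie in each of them was not determined. Of the classes taken whole, class III was the densest, with 48 sites in 1.00 Mb in replicate 1 and 184 in replicate 2. These were 8.74-fold and 10.2-fold the density of the other nuclear sequence. Single windows did not all keep this order. The class I windows held 54 sites in 2.50 Mb and 163 sites, 3.93-fold and 3.60-fold. The class II windows held 29 and 99 sites, 5.28-fold and 5.47-fold. Class III thus held 36.6% (28.9 to 45.2) of the region's sites in replicate 1 and 41.3% (36.8 to 45.9) in replicate 2, with 38.9% ± 3.26 (SD, n = 2) as the mean. Class I held 41.2% and 36.5% on its greater length, with a mean of 38.9% ± 3.31 (SD, n = 2), and class II held 22.2% ± 0.0424 (SD, n = 2).

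Class I had the largest share of score in both replicates, on 2.50 Mb against 1.00 Mb for each of the other classes. By sites it came before class III in replicate 1 and after it in replicate 2. It took 64.2% of the region's score sum in replicate 1 and 47.3% in replicate 2, class III took 21.0% and 31.4%, and class II took 14.8% and 21.4%. Class I included all sites of the region with scores of at least 1000, 3 in replicate 1 and 1 in replicate 2. Below that score, a limit chosen after the values were seen, the order was the same and the lead of class I was smaller: it took 40.8% and 42.9%, class III 34.7% and 34.0%, and class II 24.6% and 23.1%. These shares lay closer together between the replicates than those over all scores. The score sums of class I, class III and class II were 11577, 3779 and 2676 in replicate 1 and 11973, 7942 and 5407 in replicate 2. Below 1000 those of class I were 4443 and 10044. Per Mb, class I thus led only in replicate 1 over all scores. It was last per Mb in replicate 2 over all scores and in both replicates below 1000. Window 1 (28900001 to 29400000) held 6546 of the class I score sum in replicate 1 and 812 in replicate 2. The score given for class I therefore rests in replicate 1 largely on the edge of the region. Median scores were 46 in class I, 38.5 in class III and 41 in class II in replicate 1, and 25, 21 and 29 in replicate 2, so the order of the medians of class I and class II was not kept between replicates while class III had the lowest in both.

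Within each class the sites gathered in single windows. In class I, window 4 (30400001 to 30900000) held 32 of 54 sites in replicate 1 and 114 of 163 in replicate 2. Class III had more sites in window 6 (31400001 to 31900000), 34 and 130, than in window 7, 14 and 54. Class II was uneven as well. Its window 8 (32400001 to 32900000) held 4 sites in replicate 1 and 5 in replicate 2, while window 9 (32900001 to 33400000) held 25 and 94. Of the 28 overlapping pairs, 27 lay in windows 1, 4, 6 and 9, and 4 windows had none.

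Strands were close to balance over the region and in class I, and less so in class III and class II. The plus strand held 49.6% (41.2 to 58.1) of sites in replicate 1 and 48.0% (43.4 to 52.6) in replicate 2. In class I it held 51.9% (38.9 to 64.6) and 49.1% (41.5 to 56.7), in class III 39.6% (27.0 to 53.7) and 39.7% (32.9 to 46.9), and in class II 62.1% (44.0 to 77.3) and 61.6% (51.8 to 70.6). The class III and class II intervals were separate in replicate 2 and overlapped in replicate 1. Most of the 18 and 61 plus-strand sites of class II lay in runs at 32936755 to 32953920 and 33168705 to 33179906. The former held 7 and 30 sites and the latter 6 and 19. The intervals treat such neighbouring sites as independent, so their separation cannot show a strand preference of the class. In window 7 the minus strand held 11 of 14 sites in replicate 1 and 38 of 54 in replicate 2, and in window 9 the plus strand held 16 of 25 and 60 of 94.

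**Figure D2:**
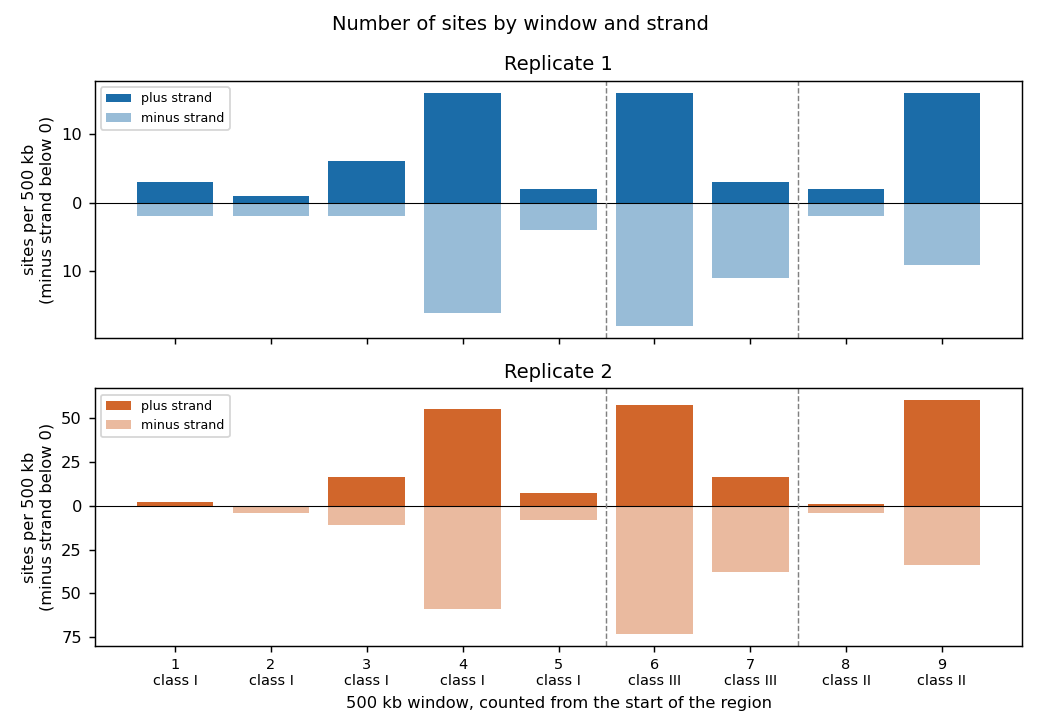
Bars give the number of sites in each of the 9 windows of 500 kb (x axis, counted from the start of the region), plus strand above 0 and minus strand below, for replicate 1 (top) and replicate 2 (bottom, its own scale). Windows 4, 6 and 9 hold most sites in both replicates, and windows 1, 2 and 8 hold 5 or fewer in each.

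Long parts of the region had no site in either list. The longest empty interval ran from 32165525 to 32795433, 630 kb across the end of the class III windows and the beginning of the class II windows. Another 617 kb were empty from 28950031 to 29566838 in the class I windows. Further empty intervals ran from 30894174 to 31110463 (216 kb), from 32953921 to 33160849 (207 kb) and from 29716166 to 29892144 (176 kb). The longest empty interval of each list alone was at the same place, 664 kb in replicate 1 and 630 kb in replicate 2. The lists hold only sites above an unknown minimum. No source used here states how reads with several matches were placed, and the MHC holds duplicated and highly polymorphic genes. An empty interval is therefore an interval without listed sites, which is not the same as one without contact.

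The strongest sites of the region differed between the replicates. In replicate 1 the highest score, 3072, belonged to a minus-strand site at 28949445 to 28949460, which ranked 100th in its list. The nearest replicate 2 site on that strand lay 28381 nt away. A plus-strand site at 28912407 to 28912421 scored 2699 in replicate 1, and its nearest replicate 2 site was 6435 nt away. These sites lie at the very start of the region, where the opening 100 kb held 5 sites and 36.3% of the region's score in replicate 1 but 3 sites and 3.21% in replicate 2. One site of this stretch was nearly equal in both. At 28918858 to 28918877 on the plus strand, replicate 1 had a score of 657, and at 28918857 to 28918876 replicate 2 had 686.

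Replicate 2 had its highest score, 1929, at 30691758 to 30691776 on the plus strand, which ranked 152nd in its list. The third highest of replicate 1, 1363, lay on the same strand at 30692775 to 30692801. Neither had a partner in the other list, but the former was 250 nt from the nearest replicate 1 site, which scored 371, and the latter was 28 nt from a replicate 2 site with 375. Replicate 2 next had 861 at 30894144 to 30894173 on the plus strand, 11530 nt from any replicate 1 site of that strand. Its minus-strand sites at 31508088 to 31508118 and 31508253 to 31508277 followed with 708 and 697. Each list had 11 sites that scored at least 300, and 5 were shared in replicate 1 and 4 in replicate 2. So a high score in one list did not mean that the same bases were listed in the other. The share at this score was not computed for other nuclear sites. Among those that scored at least 100, 49.1% of replicate 1 sites and 28.6% of replicate 2 sites were shared. The counts at 300 therefore do not show whether the region differs from the rest of the lists.

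Most sites lay in runs along 1 strand. Sites of both lists on a strand were joined into a stretch where at most 5 kb separated them, a distance chosen after the sites were seen. The region then had 126 stretches, and 54 of them (42.9%) held sites of both replicates, against 25.8% of stretches over all nuclear chromosomes. These 54 held 116 of the 131 sites of replicate 1 and 317 of the 446 sites of replicate 2, or 88.5% and 71.1%, against 69.7% and 55.9% outside the region. Denser lists join more readily, and the part of site density in this difference was not tested. At least 10 sites were joined in 15 stretches, 5 in class I, 7 in class III and 3 in class II, and all 15 held sites of both replicates. They took 44.3% of the region's sites in replicate 1 and 46.6% in replicate 2, and 44.4% and 66.3% of its score. Outside the region, 1256 of 27280 nuclear stretches joined at least 10 sites. Those took 23.8% of the sites there in replicate 1 and 29.3% in replicate 2, and 21.3% and 33% of the score. The part of site density in these differences was not tested either. Of the 15, 9 were on the plus strand and 6 on the minus strand. In 12 of them no site of either list lay on the opposite strand, and the other 3 had 1 such site each. Opposite-strand sites, and the presence of both replicates, were not counted for stretches of this size elsewhere. These features therefore cannot be called particular to the region. A stretch may hold sites of more than 1 RNA.

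The class I stretch with the most sites ran along the plus strand from 30688180 to 30694011. In replicate 1 the lone sites at 28949445 and 28912407 each scored more (3072 and 2699) than this whole stretch (2276). Replicate 1 had 6 sites in it, with scores of 16, 371, 58, 449, 1363 and 19 in genomic order. Replicate 2 had 17 sites, with a lowest score of 18, a median of 135 and a highest of 1929. This 5832 nt took 12.6% of the region's score in replicate 1 and 19.7% in replicate 2, the largest share of any of the 15 stretches in both. High scores stood at different bases in the 2 lists: replicate 2 had 637 and 601 at 30690354 to 30690390 and 30690405 to 30690422, where replicate 1 had its nearest site 695 nt away with a score of 16. On the minus strand, a stretch from 30667675 to 30674667 had 20 sites in replicate 2, with scores from 10 to 103, and 2 in replicate 1, with 49 and 170. None of these sites was shared. Between these stretches, the minus strand from 30681457 to 30684896 had 1 site of 88 in replicate 1, which was shared, and 6 sites in replicate 2.

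The other class I stretches of at least 10 sites were on the plus strand. From 30029230 to 30041549, replicate 1 had 3 sites with scores of 86, 39 and 10 and replicate 2 had 11 sites from 5 to 112, without overlap. Between 30530236 and 30536303, replicate 1 had a single site of 275, while replicate 2 had 9 sites with a median of 31 and a highest of 168. The short stretch from 30557951 to 30559029 packed 4 and 6 sites into 1079 nt. Replicate 1 scored 49, 11, 31 and 146 there, and replicate 2 reached 486 at 30558877 to 30558895.

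In class III the largest stretch lay on the minus strand from 31495097 to 31509343. Replicate 1 had 7 sites, with scores of 32, 49, 197, 553, 440, 76 and 51 in genomic order, and replicate 2 had 21, from 7 to 708 with a median of 36. Both lists peaked at the same bases: the top sites at 31508103 to 31508118 (553) and 31508088 to 31508118 (708) ended at the same position. On the minus strand the genomic end is the 5′ side of the RNA, so this shared edge is a 5′ edge. The stretch held 3 of the 7 overlapping pairs of class III and took 7.75% and 9.06% of the region's score.

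The next large stretch of class III, on the plus strand from 31590905 to 31604901, had 4 sites in replicate 1 and 18 in replicate 2. Replicate 1 scored 54, 226, 20 and 207, and replicate 2 ranged from 12 to 218 with a median of 51.5. Sites stood at both of its ends in both lists, and its single shared pair began at the same base, 31590905, with 54 in replicate 1 and 218 in replicate 2. A minus-strand stretch followed at 31607529 to 31620336 with low scores, 10, 20 and 18 in replicate 1 and at most 89 in replicate 2. Then the plus strand from 31634641 to 31640214 went the other way in score: its 4 replicate 1 sites had 87, 469, 104 and 8, while the 7 of replicate 2 had at most 56. The 469 site at 31635706 to 31635727 was 1495 nt from any replicate 2 site of its strand.

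Further along class III, the plus-strand stretch from 31795575 to 31807383 had 5 sites in replicate 1 with scores of 35, 16, 72, 45 and 15, and 9 in replicate 2 with a median of 31 and a highest of 110. The minus-strand stretch from 31911521 to 31921859 was weak in both, with 10, 26 and 51 in replicate 1 and 5 to 22 over 8 sites in replicate 2. On the same strand from 32135312 to 32139150, replicate 1 had 30 and 33, and replicate 2 had 8 sites up to 132.

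The stretch with the most sites of the whole region was in class II, on the plus strand from 32936755 to 32953920. It held 7 sites in replicate 1 and 30 in replicate 2, and by their sum it ranked 38th among all nuclear stretches. Replicate 1 scored 13, 41, 475, 34, 42, 140 and 73. Replicate 2 had a median of 37.5 and ranged from 7 to 195. The 475 site of replicate 1, at 32940028 to 32940046, had no partner and lay 156 nt from a replicate 2 site of 48. Only 2 sites of each list overlapped in this stretch.

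The plus-strand stretch from 33168705 to 33179906 shared more. Replicate 1 had 53, 57, 709, 106, 115 and 36, and 3 of these 6 sites overlapped sites of replicate 2. The strongest, at 33169615 to 33169628, scored 709 in replicate 1 and 262 at 33169617 to 33169642 in replicate 2. At 33169844 the sites of both lists began at the same base, with 106 in replicate 1 and 245 in replicate 2. Replicate 2 had 19 sites in the stretch, and its highest, 304 at 33170779 to 33170806, had no partner. The last large stretch, on the minus strand from 33281105 to 33289298, had 15 sites in replicate 2, from 6 to 226, and 1 of score 24 in replicate 1.

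**Figure D3:**
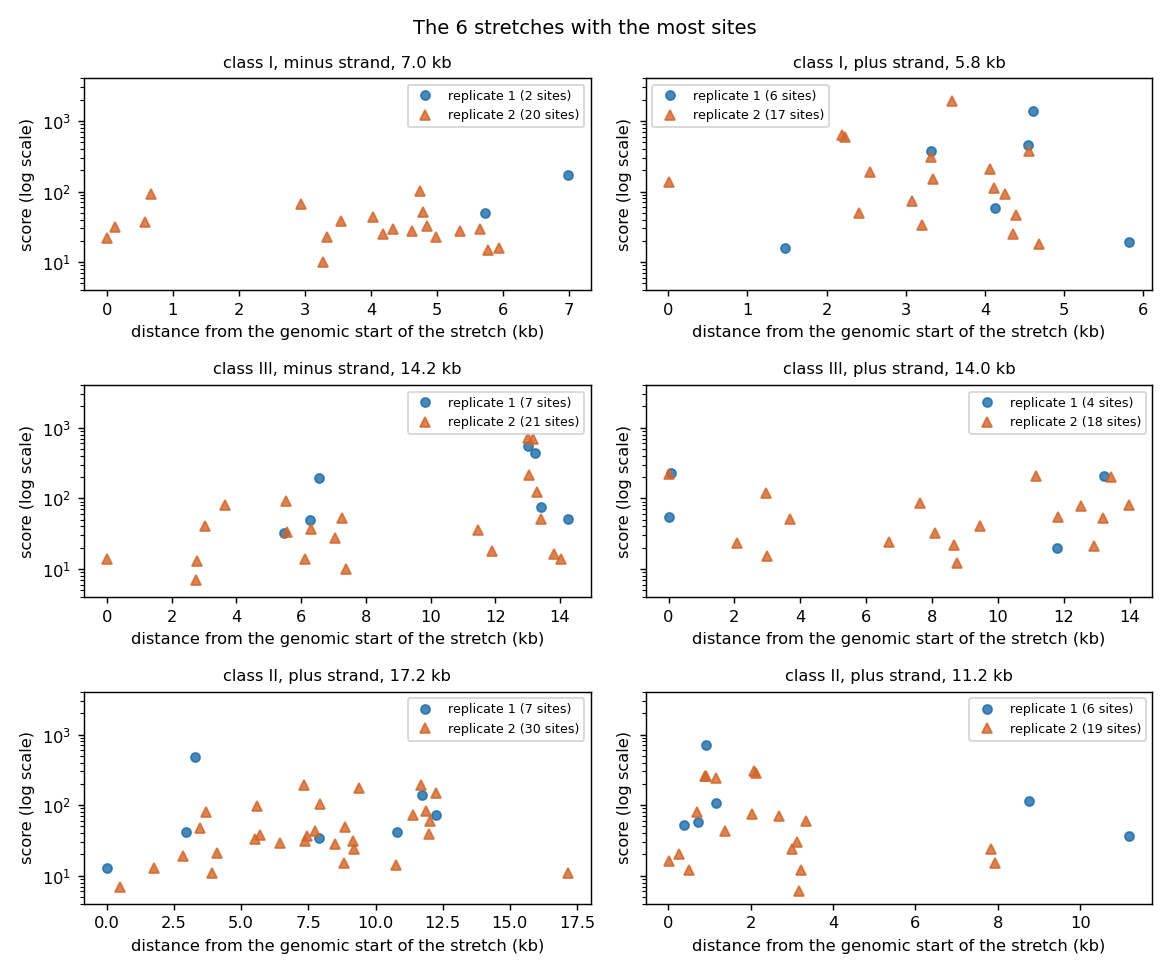
The 6 stretches with the most sites are drawn with the score of each site (y axis, log scale) against its distance from the genomic start of the stretch (x axis, kb), circles for replicate 1 and triangles for replicate 2. In the minus-strand class III stretch both replicates rise to their highest scores at the same place near 13 kb, while in the plus-strand class I stretch the highest site of replicate 2 (1929) and that of replicate 1 (1363) stand about 1 kb apart.

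Another 39 stretches held sites of both replicates with fewer than 10 sites each, 18 in class I, 12 in class III and 9 in class II. The minus-strand stretch of class I from 30620995 to 30624812 had 3 sites in replicate 1 and 5 in replicate 2, with score sums of 386 and 332 and 2 shared sites. In class I the minus-strand stretches from 31236641 to 31239575 and from 31321909 to 31324903 had 1 site of score 14 each in replicate 1, against 18 in the former and 11 and 18 in the latter in replicate 2. Neither held overlapping sites. In class II the minus-strand stretch from 32813032 to 32813356 had a score of 83 in replicate 1 and of 59 and 67 in replicate 2. These smaller stretches were named after their values were seen.

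Sharing within the region rose with the score up to 99 in replicate 1 and over all classes from 10 in replicate 2, with wide intervals. In replicate 1 none of the 30 sites with scores from 10 to 19 was shared (interval 0 to 11.4), against 7.19% (6.58 to 7.85) of other nuclear sites of that score. From 20 to 49, 17.8% (9.29 to 31.3) were shared, and from 50 to 99, 44.0% (26.7 to 62.9), against 20.4% and 32.6% outside. Among the 30 that scored at least 100, 9 were shared (interval 16.7% to 47.9%), a smaller part than the 11 of 25 with scores from 50 to 99, and the intervals of these classes overlapped. The share of other nuclear sites of that score, 49.1% (47.1 to 51.1), lay just above this interval. In replicate 2 the shares from 10 to 19, from 20 to 49, from 50 to 99 and from 100 were 1.27%, 3.33%, 13.4% (7.23 to 23.6) and 25.5% (15.3 to 39.5), against 2.08%, 6.30%, 13.6% and 28.6% outside. At the score mix of the region, other nuclear sites would be shared at 26.2% in replicate 1 and 7.97% in replicate 2, both inside the intervals of the region's own shares of 21.4% and 6.28%.

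**Figure D4:**
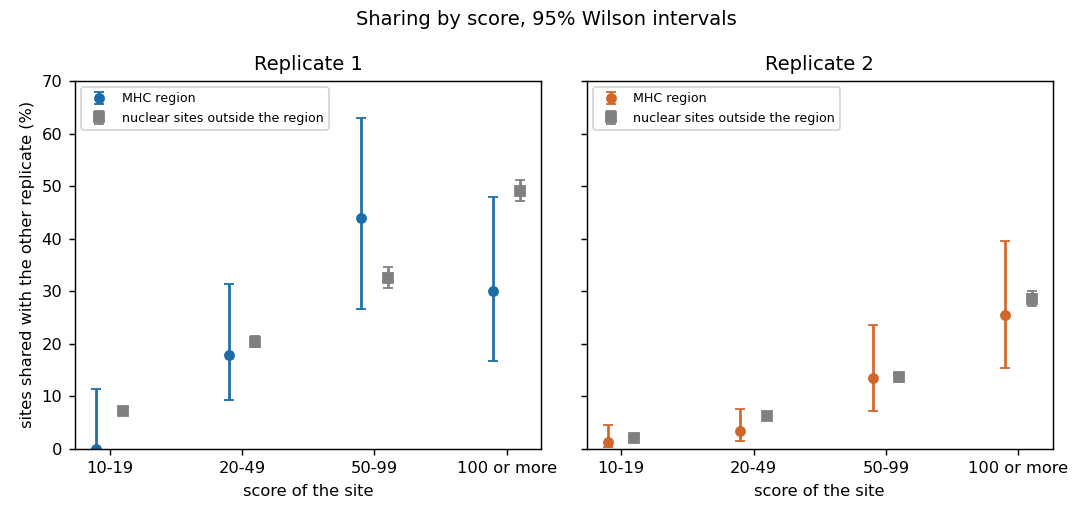
The percentage of sites shared with the other replicate (y axis) is shown by the score of the site (x axis) for the MHC region (circles) and for nuclear sites outside it (squares), replicate 1 on the left and replicate 2 on the right, with 95% Wilson intervals. The region's intervals include the share outside in each class except replicate 1 scores of at least 100, where 9 of 30 sites were shared against 49.1% outside.

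Some unshared sites lay near a site of the other list, mostly on the same strand. Of the 103 unshared sites of replicate 1, 26 had a replicate 2 site within 100 nt (midpoint to midpoint) on their strand and none on the opposite strand. Within 1 kb the numbers were 63 and 10. Of the 418 unshared sites of replicate 2, 39 (9.33%) had a same-strand replicate 1 site within 100 nt and 39.0% within 1 kb, against 25.2% and 61.2% for replicate 1. For all region sites of replicate 1, 69.5% (61.1 to 76.7) had a same-strand replicate 2 site within 1 kb, against 52.8% (52.0 to 53.5) outside the region, and 42.8% (38.3 to 47.5) of replicate 2 sites had one of replicate 1, against 29.0% (28.6 to 29.3). On the opposite strand the shares within 1 kb were 10.7% (6.47 to 17.1) against 3.41% in replicate 1 and 3.14% (1.88 to 5.20) against 1.40% in replicate 2. Within 1 kb both kinds of neighbour were thus more frequent in the region, where sites of either strand are denser, and the part of density was not tested.

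The 28 overlapping pairs were 13 in class I, 7 in class III and 8 in class II, each with exactly 1 partner. Scores were higher in replicate 1 in 15 pairs, or 53.6% (35.8 to 70.5), against 56.6% (55.0 to 58.2) of nuclear pairs outside the region. In the other 13 they were higher in replicate 2. The median log2 ratio of replicate 2 to replicate 1 was -0.25 (SD 0.87), against -0.22 (SD 1.36) outside. In 7 of the 28 pairs the scores differed by more than 2-fold, against 1582 of 3553 pairs outside. In 1 pair, or 3.57%, they differed by more than 4-fold, against 11.9% of pairs over all nuclear chromosomes. That pair was the one at 31590905, with 54 and 218. Across the pairs, which share libraries and in part stretches, the scores had a Spearman's rho of 0.73 and a Pearson's r of 0.81 on the log10 scale, against 0.68 and 0.76 for other nuclear pairs. In 12 pairs the starts were at most 2 nt apart, 42.9% against 43.1% outside. No pair had both the same start and the same end.

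Among the 10 pairs with the best mean rank in both lists, 4 more were of class I besides the one at 28918858. On the plus strand at 30692718 to 30692735, replicate 1 scored 449 and replicate 2 scored 375 at 30692727 to 30692746. At 30691488 to 30691507 the scores were 371 and 313. The minus-strand neighbours at 30623300 to 30623316 and 30623336 to 30623349 scored 184 and 172 in replicate 1 and 140 and 118 in replicate 2, which kept their order. Class III gave the pairs at 31508103 and 31590905, and class II those at 33169615 and 33169844 and, at 32948979 to 32949000, a pair with 73 in replicate 1 and 150 in replicate 2. Each library gives a single value, so no difference between them was tested.

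**Figure D5:**
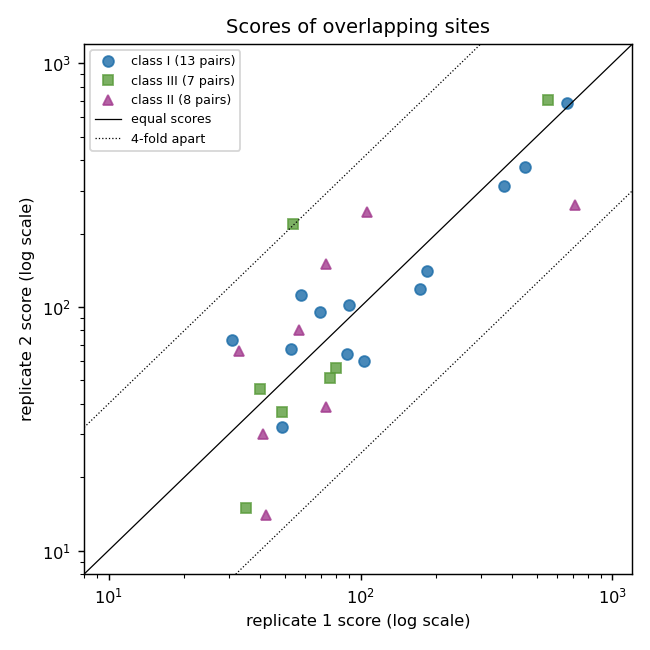
The score in replicate 2 (y axis, log scale) is plotted against the score in replicate 1 (x axis, log scale) for the 28 overlapping pairs, by class; the solid line marks equal scores and the dotted lines a 4-fold difference. All pairs lie between the dotted lines except 1 class III pair (54 and 218), which lies just beyond the upper line.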

How the data were processed

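PAR-CLIP sites were analysed in 2 libraries of 1 group. Each deposited list is a table of 6 columns without a header, and its score column is a whole number per site as deposited by the authors. Per the submitters' processing notes, bcl2fastq, Bowtie 1.1.2 and the build hg19 were used. The caller of the sites, its thresholds and the handling of multi-mapping reads are not stated in any source used here. The reference held GRCh38 annotation and no genome sequence. The largest site end on chromosome 1 (249168105) lies beyond its last annotated feature (248937043), so builds were kept apart and nothing was converted. For this reason genes with sites, transcript location, base composition, the 10 gene lists (69 genes) and a check of cell type markers were not run, and class borders were window edges.

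Overlaps (at least 1 nt, same strand), Wilson intervals and stretches were computed in Python 3.11.15 with numpy 2.4.6, pandas 2.3.3 and scipy 1.17.1, with the overlap functions tested on simulated lists. No significance test was run. Lengths of chromosomes were taken as their largest site end. The sites named were the 10 pairs with the best mean rank and the 5 highest scores of each list; stretches and other sites were chosen after their values were seen. The region, the lists and the rules were chosen with earlier results of these data known. Alternatives were other overlap rules, higher scores, score per nt, leaving out a replicate and other stretch gaps.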

Additional observations from a re-analysis of the deposited data

How the results depend on the processing

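The share of the region's sites that overlapped the other list moved with the overlap rule, as did the share of other nuclear sites. With 50% of both sites required it was 14.5% in replicate 1 and 4.26% in replicate 2 (16.4% and 4.98% outside the region). With gaps of up to 50 nt it was 38.2% and 12.3% (31.1% and 10.5% outside), and among scores at or above the median of each list 29.2% and 9.63% (30.2% and 8.99% outside). Ignoring strand changed neither. Restricting to scores at or above the median moved the class II share of sites to 24.6%. With scores below 1000 only, a setting chosen after seeing the data, the mean shares of score were 41.9% in class I, 34.3% in class III and 23.8% in class II, because 4 sites of class I were left out. Of the 35 alternative values, 25 stayed within the replicate spread, the interval or 1.5 times the count, and none reversed. Some of these 25 could not have moved. With 2 replicates, the value without 1 of them always lies within the spread, and every pair already had exactly 1 partner. The count of 25 is therefore no measure of robustness. Most values were shares or counts, which have no direction to reverse, so the lack of reversals is no measure of it either. An order did change: class III had more sites than class I in replicate 2 alone (41.3% against 36.5%) and fewer in replicate 1 alone (36.6% against 41.2%). Stretch gaps of 2 and 10 kb, also chosen afterwards, gave 10 and 18 stretches of at least 10 sites. Score per nt gave the higher value to replicate 1 in 67.9% of pairs. With only 1 list no overlap can be computed. No paired analysis was possible because both libraries belong to 1 group. Class borders at genes, exon-only counts and the other alternatives that need hg19 annotation or sequence were not run. Since no depth is known, its limit on the sharing of weak sites was not tested.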
